A study of Mus musculus with 8 samples.

Results

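The genes described here are 10 genes typical of group 2 innate lymphoid cells (ILC2): Arg1, Pparg, Icos, Il1rl1, Rora, Il17rb, Areg, Klrg1, Il13 and Il5. They were chosen by name as ILC2-type genes with their values in prepro NK cells (preproNK) on these arrays already known, so those values are a description and support nothing by themselves. Probe sets annotated to 1 of these symbols alone were found for 8 of the 10, out of 17097 genes with such a probe set, and Il1rl1 and Areg were not analysed here. Of the 8, 6 passed the filter on dim probe sets together with 11583 genes in all (brighter than the median probe set of its array on 2 or more of the 8 arrays). That filter also passes genes that are bright in 1 population only. Il13 and Il5 did not pass it.

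Gene expression was measured on 8 one-colour arrays of sorted bone marrow progenitors of wild type and Nfil3-deficient mice, where Nfil3 is a transcription factor of the bZIP class that NK cells need to develop. There were 4 groups of 2 arrays: wild type (WT) and Nfil3 knockout (KO) all-lymphoid progenitors (ALP), an early stage common to the lymphoid lineages, and WT and KO preproNK, a later stage towards NK cells. All mice, controls included, carried the Id2-GFP reporter, whose green fluorescence follows the activity of Id2, and cells were sorted after depletion of mature lineages and lysed at once. Replicate 1 and replicate 2 were processed on separate dates, so each replicate number forms a pair of a WT and a KO array within a population. The sources used here do not give the age of the mice, how many were behind a sample, how the knockout was made or how the sort was gated.

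The WT preproNK replicate 2 array stood apart. Across tested genes it correlated with the other array of its group at 0.621 and with WT ALP replicate 2 at 0.747, and the SD of its values was 1.39 log2 against 1.55 to 1.88 on the other arrays. The members' differences that rest on it are given with and without it. Nfil3 had log2 levels of 6.89 and 5.50 in WT ALP, 3.41 and 4.15 in KO ALP, 4.75 and 4.74 in WT preproNK and 3.84 and 3.57 in KO preproNK (replicate 1, then replicate 2, as in all lists of levels below), with no overlap between genotypes within a population. Whether its probe set lies in the deleted part is not known. Xist, a sex-linked gene, was at 7.94 to 9.30 on 3 of the 4 replicate 2 arrays and at 3.10 to 3.56 on the replicate 1 arrays. By Xist, WT preproNK replicate 2, at 4.20, went with neither set. The sex-linked genes Eif2s3y and Kdm5d were at 6.35 to 7.04 on the replicate 1 arrays and at 4.19 to 5.22 on the replicate 2 arrays. By these, WT preproNK replicate 2 was the lowest (4.19 and 4.25). The date and these differences cannot be told apart.

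ILC2 are tissue lymphocytes without antigen receptors that respond to the alarm cytokines IL-33, IL-25 and TSLP and in return make IL-5 and IL-13. They arise in bone marrow from Id2-dependent precursors that also give NK cells and other innate lymphoid cells, and Nfil3 acts early in that branch. GATA-3 and ROR alpha are needed for ILC2 to form, whereas IL-17RB, ST2 (the product of Il1rl1), ICOS and KLRG1 are surface receptors by which they sense signals or are recognized. Several of these genes are not private to ILC2: Icos and Rora are also used by T cells, Klrg1 by mature NK cells, and Arg1 and Pparg by macrophages.

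In the replicate 1 arrays, where WT preproNK carried high levels of 6 ILC2-type genes, all 6 were lower in KO preproNK, against 48.7% of all tested genes. In the replicate 2 arrays, only Arg1 and Pparg were lower (2 of 6, against 42.4%). Arg1 and Pparg were therefore the members that were lower in KO in both pairs (against 26.1%). Icos and Rora were about as high in KO as in WT replicate 1, and Il17rb and Klrg1 lay in between. Over both pairs the genes did not go down together in KO preproNK. That reading leans on WT preproNK replicate 2, the array that stood apart, and without it 5 of the 6 differences were below 0. In sorted populations measured in bulk, fewer cells of a type and less RNA per cell cannot be told apart.

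**Figure D1:**
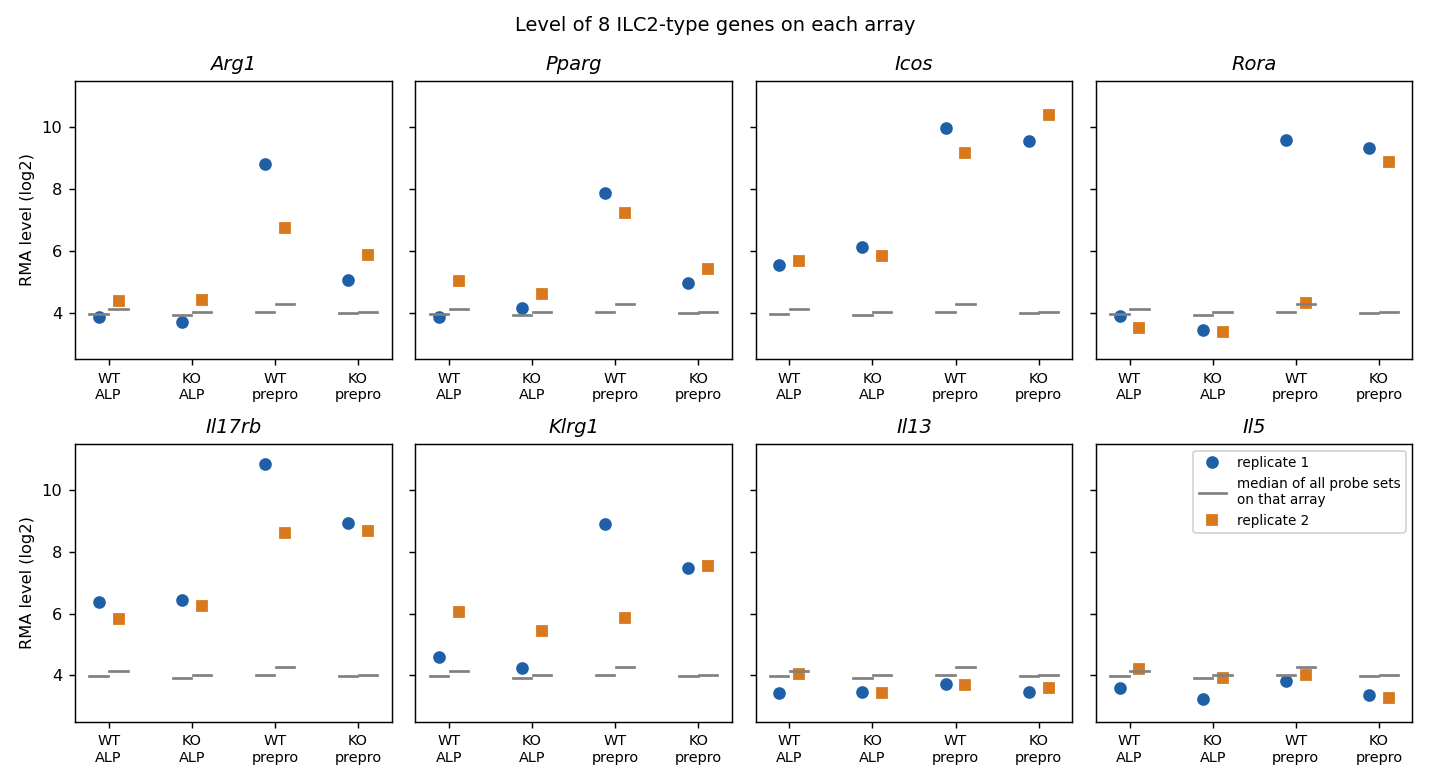
Log2 level of the 8 measured ILC2-type genes on each array (y axis) in the 4 groups (x axis), with circles for replicate 1, squares for replicate 2 and grey bars for the median of all probe sets on that array. Arg1 and Pparg are at 6.74 or more on both WT preproNK arrays and at 5.87 or less on all others, Rora is near the grey bar on WT preproNK replicate 2, and Il13 and Il5 stay near or below the bars.

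Among the effector genes, Arg1 encodes arginase 1, an arginine-degrading enzyme that ILC2 and their marrow precursors carry (GRCm38.p6, chromosome 10, 24915207 to 24927470). Its log2 levels were 3.85 and 4.38 in WT ALP, 3.70 and 4.41 in KO ALP, 8.81 and 6.74 in WT preproNK and 5.07 and 5.87 in KO preproNK. Both KO preproNK arrays lay below both WT preproNK arrays and above all 4 ALP arrays. The KO minus WT difference in preproNK was -2.30 log2 (SE 0.69, n = 2 each), a level 4.93-fold higher in WT, made up of -3.73 for replicate 1 and -0.87 for replicate 2. Without WT preproNK replicate 2 the difference was -3.33. The replicate 2 difference lay at percentile 17.2 of the differences of all tested genes in its pair.

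Il13 and Il5 encode the cytokines that define ILC2 function and lie close to each other on chromosome 11 (Il13 at 53631323 to 53634702 and Il5 at 53720794 to 53725103, RefSeq annotation of GRCm38.p6). Il13 had levels of 3.42 and 4.05 in WT ALP, 3.47 and 3.44 in KO ALP, 3.71 and 3.68 in WT preproNK and 3.47 and 3.60 in KO preproNK, which is below the array median on every array. Il5 had levels of 3.60 and 4.22, 3.25 and 3.91, 3.83 and 4.02, and 3.37 and 3.26 in the same order of groups, above the array median on 1 array only, WT ALP replicate 2. No signal of either cytokine gene above background was detectable in preproNK of either genotype, so no fold is given for them.

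Among the regulators, Pparg encodes a nuclear receptor with a role in lipid metabolism (chromosome 6, 115360879 to 115490404). Its levels were 3.86 and 5.04 in WT ALP, 4.14 and 4.59 in KO ALP, 7.88 and 7.22 in WT preproNK and 4.95 and 5.43 in KO preproNK. WT preproNK was high on both arrays, and KO preproNK overlapped with ALP, because WT ALP replicate 2 was above KO preproNK replicate 1. The KO minus WT difference in preproNK was -2.36 log2 (SE 0.50), a level 5.13-fold higher in WT, with -2.93 for replicate 1 and -1.79 for replicate 2, and it was -2.69 without WT preproNK replicate 2. Within an array it stood at percentiles 87.8 and 93.3 of tested genes in WT preproNK and at 37.1 and 47.6 in KO preproNK; its rank was as high on the WT array with the narrow range of values as on the other.

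Rora encodes ROR alpha, a nuclear receptor needed for ILC2 to form (chromosome 9, 68653404 to 69388246). Its levels were 3.88 and 3.49 in WT ALP, 3.44 and 3.36 in KO ALP, 9.58 and 4.32 in WT preproNK and 9.33 and 8.89 in KO preproNK. WT preproNK replicate 1 and both KO arrays were bright, and WT preproNK replicate 2 was close to its array's median probe set (4.27), at percentile 16.2 of tested genes against 95.1 to 97.9 on the other preproNK arrays. The difference in preproNK was 2.16 log2 (SE 1.38), from -0.25 for replicate 1 and 4.56 for replicate 2, and it turned to -0.47 without the WT preproNK replicate 2 array. Rora had 5 probe sets, and with their mean in place of the brightest the preproNK difference was 0.52 log2. Of the other 4, 2 were likewise dim on WT preproNK replicate 2 (3.37 and 2.91) and higher on the other preproNK arrays (4.85 or more), 1 had differences of -0.72 and -0.24 in the 2 pairs, and 1 was below the array median on all arrays.

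The promoters of Pparg and Rora are shown because both encode nuclear receptors, a class that binds the half-site AGGTCA, and both are ILC2 regulators measured here. Sequences are the RefSeq promoters of GRCm38.p6, 250 bases before to 50 after a gene's start, on the plus strand for both genes, and capitals mark AGGTCA on either strand. Pparg has 3 such starts in the table, of which the 2 shown, on chromosome 6, carry the half-site, and Rora has 1, on chromosome 9.
Pparg, chr6:115360894-115361193: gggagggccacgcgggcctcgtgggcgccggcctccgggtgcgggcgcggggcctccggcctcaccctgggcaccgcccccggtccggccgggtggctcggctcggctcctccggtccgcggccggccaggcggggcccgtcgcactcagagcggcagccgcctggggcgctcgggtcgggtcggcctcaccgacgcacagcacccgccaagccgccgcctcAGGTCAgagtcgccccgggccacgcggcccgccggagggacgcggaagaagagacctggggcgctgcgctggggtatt
Pparg, chr6:115362099-115362398: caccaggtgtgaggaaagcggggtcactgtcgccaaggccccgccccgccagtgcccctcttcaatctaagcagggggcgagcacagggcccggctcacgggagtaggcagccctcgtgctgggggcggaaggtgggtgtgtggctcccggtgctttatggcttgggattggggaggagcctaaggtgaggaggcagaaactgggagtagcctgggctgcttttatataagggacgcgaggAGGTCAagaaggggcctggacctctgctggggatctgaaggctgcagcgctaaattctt
Rora, chr9:68653536-68653835: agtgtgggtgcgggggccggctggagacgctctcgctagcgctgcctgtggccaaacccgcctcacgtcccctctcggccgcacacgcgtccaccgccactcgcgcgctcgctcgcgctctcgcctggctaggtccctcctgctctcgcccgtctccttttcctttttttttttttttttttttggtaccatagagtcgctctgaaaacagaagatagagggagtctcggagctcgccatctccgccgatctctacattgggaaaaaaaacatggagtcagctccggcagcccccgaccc
The half-site begins 28 and 9 bases before the start in the Pparg promoters, and these letters are not in the Rora window. AGGTCA on either strand is found in 16.3% of the 32851 promoters of this length. The 2 forms of the NFIL3 site, TTACGTAA and TTATGTAA, searched on both strands, are in 0.119% and 0.938% of all promoters and in 0 of the 7 promoters of the 5 measured members that the table holds (Pparg, Rora, Il17rb, Il13 and Il5). The GATA site AGATAA, in 11.2% of all promoters, is in 1 of these 7, 81 bases before the start of Il13. The motifs do not overlap one another in these windows, and a match describes the letters only.

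Among the receptors, Icos encodes a costimulatory receptor that ILC2 and activated T cells carry (chromosome 1, 60960773 to 61000322). Its levels were 5.55 and 5.67 in WT ALP, 6.13 and 5.82 in KO ALP, 9.98 and 9.18 in WT preproNK and 9.57 and 10.41 in KO preproNK. All 4 preproNK arrays were high and the genotypes overlapped. The difference between KO and WT preproNK was 0.41 log2 (SE 0.45), with -0.41 for replicate 1 and 1.23 for replicate 2, and it was 0.01 without WT preproNK replicate 2. Its other 2 probe sets gave -0.32 and 2.33, and -0.25 and 2.07.

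Il17rb encodes the receptor for IL-25 (chromosome 14, 29996168 to 30008896). Its levels were 6.38 and 5.84 in WT ALP, 6.44 and 6.26 in KO ALP, 10.83 and 8.60 in WT preproNK and 8.92 and 8.69 in KO preproNK. WT preproNK replicate 1 was high above the other 3 preproNK arrays, which lay between 8.60 and 8.92. The difference was -0.91 log2 (SE 0.67), from -1.91 for replicate 1 and 0.09 for replicate 2, and it was -2.02 without WT preproNK replicate 2.

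Klrg1 encodes an inhibitory lectin-like receptor of ILC2, NK cells and effector T cells (chromosome 6, 122270596 to 122282833). Its levels were 4.58 and 6.05 in WT ALP, 4.24 and 5.43 in KO ALP, 8.90 and 5.86 in WT preproNK and 7.47 and 7.54 in KO preproNK. WT preproNK replicate 2 was lower than WT ALP replicate 2, whereas both KO preproNK arrays were above all ALP arrays. The difference between KO and WT preproNK was 0.13 log2 (SE 0.96), with opposite signs in the pairs (-1.43 and 1.69), and it turned to -1.39 without WT preproNK replicate 2.

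The 6 tested members can be set beside all tested genes pair by pair. In the replicate 1 pair 6 of 6 were lower in KO preproNK, where 48.7% of all tested genes were. Of the 6, 4 were lower by 1 log2 or more (Arg1, Pparg, Il17rb and Klrg1), against 1.85% of all tested genes, and 0 were higher by that much, against 2.88%. In the replicate 2 pair 2 of 6 were lower, against 42.4%. There Pparg alone was lower by 1 log2 or more, against 13.6% of all tested genes, and Icos, Rora and Klrg1 were higher by that much, against 32.1%. The members' median difference was -1.67 log2 in the first pair and 0.66 in the second, while the median over all tested genes was 0.01 and 0.29. These shares are printed for scale and nothing is read from them, because the members were chosen with this contrast known.

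**Figure D2:**
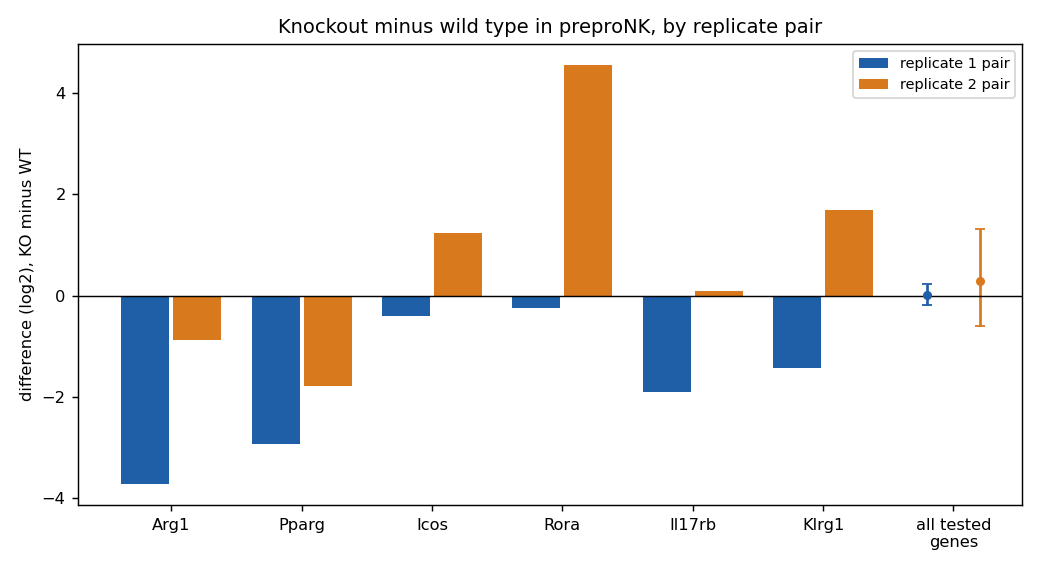
Difference in log2 level between KO and WT preproNK (y axis) for the 6 tested ILC2-type genes, with blue bars for the replicate 1 pair and orange bars for the replicate 2 pair; at the right, points and whiskers give the median and the quartiles over all tested genes. All blue bars are below 0, from -0.25 to -3.73, and of the orange bars only those of Arg1 and Pparg are.

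Over both pairs, Arg1 and Pparg were the members with both KO arrays below both WT arrays (2 of 6, against 16.5% of all tested genes), and 0 of 6 had both KO arrays above both WT arrays (against 22.7%). The fit over all arrays gave a median difference of -0.39 log2 for the 6 members against 0.15 for all tested genes, with 3 members below 0. The members' median was -1.71 without WT preproNK replicate 2 and 0.51 without WT preproNK replicate 1. With WT preproNK replicate 2 left out, 5 of the 6 members were below 0, from -3.33 for Arg1 to -0.47 for Rora, and Icos was at 0.01. The median of all tested genes was then 0.01. That fit sets 1 WT preproNK array of 1 date against KO arrays of both dates, so genotype and date are partly confounded. The remaining WT array is also the one on which most members were highest.

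The step from ALP to preproNK was large for these genes. In WT, 5 of the 6 tested members had both preproNK arrays above both ALP arrays, against 9.73% of all tested genes, the exception being Klrg1. In KO 6 of 6 did, against 22.2%. In WT the log2 differences were 3.66 for Arg1 (SE 0.69), 3.10 for Pparg (SE 0.50), 3.97 for Icos (SE 0.45), 3.26 for Rora (SE 1.38), 3.60 for Il17rb (SE 0.67) and 2.06 for Klrg1 (SE 0.96). Without WT preproNK replicate 2 they were 4.69 for Arg1, 3.43 for Pparg, 4.36 for Icos, 5.89 for Rora, 4.72 for Il17rb and 3.58 for Klrg1. In KO they were 1.42 for Arg1, 0.82 for Pparg, 4.01 for Icos, 5.71 for Rora, 2.45 for Il17rb and 2.67 for Klrg1, with the same SEs. The knockout difference in preproNK minus that in ALP was -2.25 for Arg1 (SE 0.97), -2.27 for Pparg (SE 0.71), -1.15 for Il17rb, 0.05 for Icos, 0.61 for Klrg1 and 2.45 for Rora (SE 1.95). Without WT preproNK replicate 2 it was -3.28 for Arg1, -2.60 for Pparg, -2.27 for Il17rb and -0.35 for Icos, and it turned to -0.91 for Klrg1 and -0.18 for Rora. For Icos the step was smaller in KO than in WT in the replicate 1 pair (3.44 against 4.43) and larger in the replicate 2 pair (4.59 against 3.51), and the mean of its probe sets moved the difference of the steps from 0.05 to 0.69. For Rora the mean of its probe sets moved the step from 3.26 to 1.59 in WT and from 5.71 to 2.29 in KO. The difference of its steps went from 2.45 to 0.69. Pparg was the member with the smallest step in KO. Rora in ALP was below the array median on all 4 arrays, so its folds are taken over that median. In KO preproNK it was at least 35.2-fold higher. For WT the same figure is 7.48, from a mean of 9.58 on replicate 1 and 4.32 on replicate 2. The latter was close to its array's median (4.27), and the WT step in that pair was 0.83 log2. Both folds are for the brightest of its 5 probe sets. Icos was called by limma in WT (1 of 6 members, against 0.0345% of all tested genes called higher) and in KO (1 of 6, against 1.22%). In WT the Icos call was lost with array weights, with the mean of all probe sets, without a filter and without any 1 of the WT ALP or KO arrays, and in KO without any 1 of the 4 KO arrays. With the replicate number as a block, Icos, Il17rb and Pparg were called in WT (3 of 6, against 0.268%) and Icos, Il17rb and Rora in KO (3 of 6, against 2.59%). The preproNK arrays are those the members were chosen with, and these calls are given as a description.

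**Figure D3:**
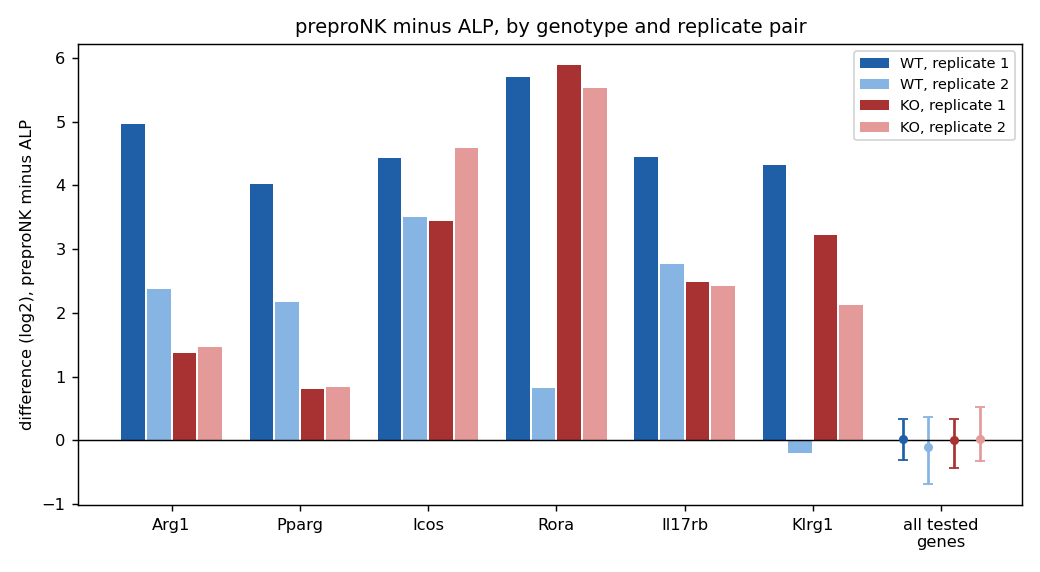
Difference in log2 level between preproNK and ALP (y axis) for the 6 tested ILC2-type genes in each genotype and replicate pair, with the median and quartiles over all tested genes at the right. Arg1 and Pparg have taller bars in WT (2.17 to 4.96) than in KO (0.81 to 1.46), Icos has 4 bars of 3.44 to 4.59, and Rora and Klrg1 have a short bar in WT replicate 2 only.

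In ALP, the knockout difference is taken between ALP arrays alone and was tested, with the spread estimated from all 4 groups. No member was called between KO and WT ALP in the limma fit. The log2 differences were -0.06 for Arg1 (SE 0.69), -0.09 for Pparg (SE 0.50), 0.36 for Icos (SE 0.45), 0.24 for Il17rb (SE 0.67) and -0.48 for Klrg1 (SE 0.96), each with an adjusted p of 1. Rora was below the array median on all 4 ALP arrays and passed the filter through preproNK alone, so its ALP test (-0.29, SE 1.38) could not show a difference. Of the 6 members 0 were called, against 0% of all tested genes (0 of 11583), and 0 of the 6 had an unadjusted p under 0.05, against 5 of all tested genes. Icos had both KO arrays above both WT arrays (1 of 6, against 8.68%) and Rora both below (1 of 6, against 7.4%), in the latter case under the array median. Arg1 and Pparg thus started from low ALP levels in both genotypes. Since the spread includes that of WT preproNK, ALP differences of the size of these SEs were not detectable.

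The members differed from one another in shape. By the root mean square difference between centred log2 profiles over the 8 arrays, Arg1 and Pparg were the nearest tested members to each other (0.50), followed by Arg1 and Il17rb (0.71) and Icos and Il17rb (0.82), and Pparg and Rora were the farthest apart (2.39). Il13 and Il5, both at background, were 0.26 apart. The tested genes nearest to the mean profile of the 8 members were Ahcyl2 (0.22), Mfhas1 (0.25), Sh2d2a (0.38), which encodes a T cell signalling adaptor, Cuedc1 (0.39), Cysltr2 (0.42), a receptor for cysteinyl leukotrienes, and Ret (0.45), a receptor tyrosine kinase. Ahcyl2 had levels of 5.08 and 5.22 in WT ALP, 5.23 and 5.30 in KO ALP, 8.72 and 6.45 in WT preproNK and 7.34 and 7.56 in KO preproNK. Like the members' mean, it was highest on WT preproNK replicate 1, and both KO arrays lay between the WT preproNK arrays.

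The rest of the ILC2 programme was followed through a list of 50 further receptors, enzymes, cytokines and regulators known from ILC2. Of these, 44 had a probe set and 40 were tested. This list was chosen with earlier results of these data known, so its counts and shares, here and below, are a description. Between ALP and preproNK in WT, 4 of the 40 had a difference below 0, and their median was 1.48 log2 against -0.05 for all tested genes. Thy1, a surface protein of lymphocytes, was the 1 gene of the 40 called higher in WT (4.09 log2, SE 0.49, limma adjusted p = 0.0401). The share of all tested genes called higher was 0.0345%, and 0 of the 40 were called lower. In KO 4 of the 40 were below 0, with a median of 1.11. There 9 of 40 were called higher and 0 lower, against 1.22% of all tested genes called higher. Those 9 were Thy1 (5.86, SE 0.49, adjusted p = 0.00359), the receptor component gene Ramp3 (3.61, SE 0.42), the IL-18 receptor gene Il18r1 (4.65, SE 0.58), the zinc finger regulators Zbtb16 (2.97, SE 0.40) and Bcl11b (4.23, SE 0.61), the prostaglandin D2 receptor gene Ptgdr2 (3.04, SE 0.43), the chemokine receptor genes Ccr4 (3.24, SE 0.49) and Cxcr6 (4.06, SE 0.76), and Id2 (4.12, SE 0.69), with limma adjusted p from 0.00359 to 0.0453. With the replicate number as a block, Tnfrsf18 was called as well in WT, and Il2ra, Maf and Tnfrsf18 in KO (12 of 40). Thy1 in WT lost its call without WT ALP replicate 1 or 2, without any of the 4 KO arrays, with array weights and without a filter, and the 9 in KO lost theirs without any 1 of the 4 KO arrays. Cxcr6 and Id2 also lost theirs without a filter and without WT ALP replicate 1 or 2, Cxcr6 with the stricter filter and after repeated quantile normalization, and Id2 with the mean of all probe sets.

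In preproNK, 0 of the 40 were called between KO and WT, against 0% of all tested genes (0 of 11583). By limma 12 of the 40 had an unadjusted p under 0.05, against 5.4% of all tested genes (625). Nothing is read from that share, since earlier results were known when the list was chosen. With the replicate number as a block it was 0 of the 40 and 10 of all tested genes, and without WT preproNK replicate 1 it was 15 of the 40 and 2532 of all tested genes. The differences went both ways, with 21 of 40 below 0 and a median of -0.04 log2 against 0.15 for all tested genes. The 6 largest were Ccr4 (2.29, SE 0.49, adjusted p = 0.372), Ptgdr2 (2.20, SE 0.43, adjusted p = 0.308), Il18r1 (2.12, SE 0.58, adjusted p = 0.613), Vipr2, a receptor for vasoactive intestinal peptide (-2.08, SE 0.80, adjusted p = 0.613), Nmur1, the neuromedin U receptor of ILC2 (-1.93, SE 0.97, adjusted p = 0.613), and Ramp1 (1.90, SE 0.95, adjusted p = 0.613). Ptgdr2 had levels of 4.93 and 4.70 in WT and 7.46 and 6.56 in KO preproNK. Nmur1 had levels of 9.68 and 6.32 in WT and 6.57 and 5.57 in KO preproNK. Ptgdr2 was thus higher on both KO arrays, whereas Nmur1 was high on WT replicate 1 and not on the other 3 arrays. Gata3, the regulator that defines ILC2 together with Rora, had levels of 7.79 and 4.46 in WT and 6.27 and 5.67 in KO preproNK, a difference of -0.16 (SE 0.93, adjusted p = 0.936). Id2 had levels of 10.68 and 8.37 in WT and 10.48 and 9.86 in KO preproNK, a difference of 0.65 (SE 0.69, adjusted p = 0.659).

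The other ILC2 genes were also counted pair by pair. In the replicate 1 pair 26 of 40 were lower in KO (against 48.7% of all tested genes) and 13 were lower by 1 log2 or more (against 1.85%). In the replicate 2 pair 13 were lower (against 42.4%) and 3 were lower by that much (against 13.6%). In both pairs 11 were lower (against 26.1%), and 15 were lower in the first pair and higher in the second (against 22.6%). A further 12 were higher in both pairs, a count without a share over all tested genes beside it, so nothing is read from it. A further fit had the replicate number as a block and left out WT preproNK replicate 2. It was chosen after seeing the data and leaves 1 WT preproNK array. In that fit 6 of the 40 were called lower in KO (against 0.173% of all tested genes called lower). They were Nmur1 (-3.64, SE 0.54, adjusted p = 0.0381), Vipr2 (-3.35, SE 0.42), the IL-9 receptor gene Il9r (-2.95, SE 0.36), the leukotriene enzyme gene Alox5 (-2.94, SE 0.35), the inhibitory receptor gene Cd200r1 (-2.56, SE 0.36) and the gut homing receptor gene Ccr9 (-2.38, SE 0.36), with limma adjusted p from 0.0277 to 0.0381. Without WT preproNK replicate 2 and without the block, 0 of the 40 were called. In the replicate 2 pair Cd200r1 was higher in KO (1.26) and Ccr9 was at 0.05. Both KO preproNK levels of Cd200r1 (4.85 and 4.70) lay above WT preproNK replicate 2 (3.44). The blocked fit assumes that the lone WT preproNK array varies like the other groups, and Il9r, Alox5, Cd200r1 and Ccr9 were picked out once their values were known.

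**Figure D4:**
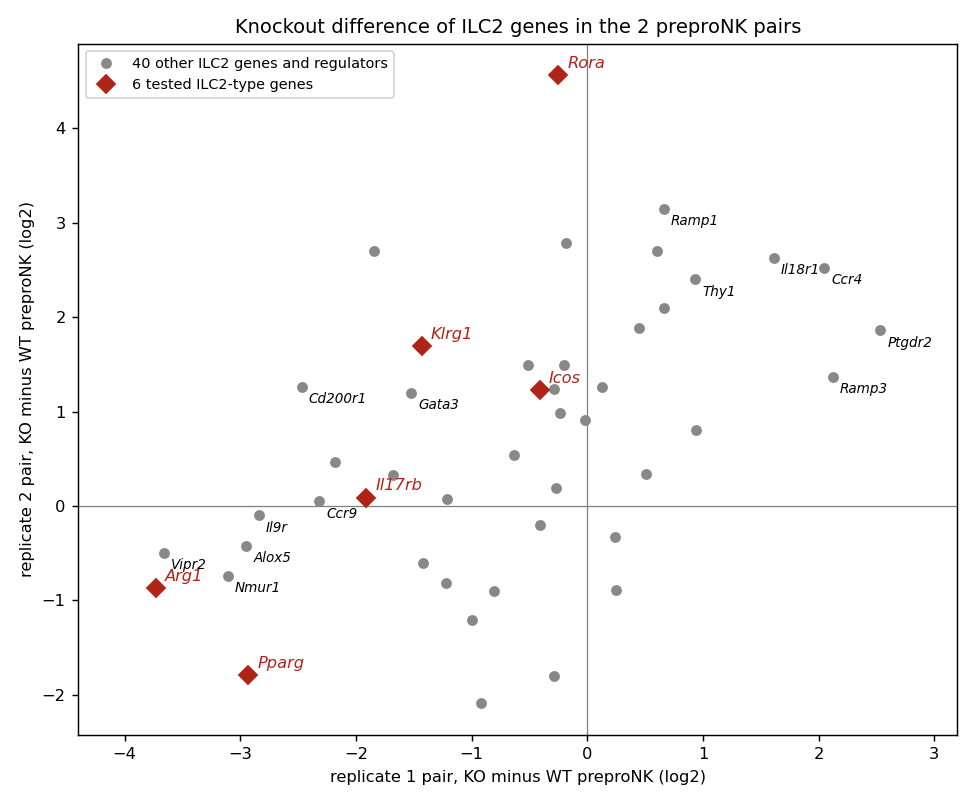
KO minus WT preproNK difference in log2 level in the replicate 1 pair (x axis) and the replicate 2 pair (y axis), with diamonds for the 6 tested ILC2-type genes and grey points for 40 other ILC2 genes and regulators. Arg1 and Pparg lie at the lower left with Vipr2, Nmur1, Alox5 and Il9r, while Ptgdr2, Ccr4, Il18r1 and Ramp3 lie at the upper right and Rora at the top.

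Markers of other cell types that use some of these genes were read on the same arrays. The 12 measured T cell markers had summed log2 levels of 80.3 and 68.2 in WT preproNK and 95.2 and 91.6 in KO preproNK, against 53.5 to 56.2 in ALP, with Ctla4 below the median on every array. On each preproNK array 11 of the 12 were above the array's median, against 7 or 8 on the ALP arrays. The brightest in WT preproNK were the IL-2 receptor gene Il2ra (9.27 and 6.80 in WT, 9.03 and 7.77 in KO preproNK), the adaptor gene Lat (8.47 and 7.60, 9.08 and 8.88) and Cd3e, a chain of the T cell receptor complex (8.48 and 6.59, 9.99 and 10.45). Icos, Rora and Klrg1 are also genes of T cells. The 9 NK lineage markers summed to 55.1 and 49.9 in WT and 63.0 and 63.2 in KO preproNK, against 38.7 to 43.0 in ALP. They were led by Id2, the perforin gene Prf1 (8.39 and 6.12 in WT, 8.61 and 8.36 in KO preproNK) and the IL-2 receptor gene Il2rb (6.77 and 5.76, 8.91 and 8.90). Ncr1, a defining NK receptor gene, was below the median on all arrays. Between ALP and preproNK 0 of the 8 tested NK markers were called in WT, against 0.0345% of all tested genes called higher. Their WT log2 differences were 2.84 for Tbx21 (limma adjusted p = 0.0983), 2.64 for Id2, 1.99 for Il2rb and 1.58 for Klrk1. They were 0.71 for Eomes, 0.36 for Gzmb, 0.35 for Klrb1c and -0.32 for Prf1. In KO 5 of 8 were called higher (Id2, Il2rb, Klrk1, Tbx21 and Gzmb), against 1.22% of all tested genes. The T cell gene Cd3e differed by 4.33 in WT (limma adjusted p = 0.0813). In KO the T cell markers Cd3e (7.12), Cd3g (6.69), Cd3d, Cd28, Cd4, Cd5 and Cd6 were called higher than in ALP. Lat, Ikzf2, Il2ra and Foxp3, the other tested T cell markers, were not called there. Tbx21 and Cd3e were both called in WT once the limma model held a replicate block (adjusted p = 0.0348 and 0.0378). The sorted WT population is called preproNK here by its label alone, and its identity was not tested.

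The 9 macrophage and monocyte markers, of a lineage that can express Arg1 and Pparg, summed to 39.1 and 43.1 in WT preproNK, 38.7 and 45.2 in KO preproNK and 38.7 to 40.4 in ALP. Marco and Mertk were below the array median on all arrays, and the brightest were Lyz2 (8.54 and 6.46 in WT, 8.20 and 9.47 in KO preproNK), Csf1r (5.44 and 5.59, 5.24 and 6.22) and Cd68 (5.18 and 5.01, 4.89 and 6.28). The summed levels of WT and KO preproNK overlapped. The 9 mast cell and basophil markers summed to 40.9 and 42.1 in WT and 41.5 and 35.2 in KO preproNK, with Mcpt4, Fcer1a and Ms4a2 below the median on every array and Mcpt8 brightest, at 7.56 and 6.56 in WT and 8.46 and 4.38 in KO preproNK. The 6 eosinophil markers summed to 21.4 and 25.5 in WT and 20.3 and 20.0 in KO preproNK, with Ccr3 below the median on every array. The 4 measured ILC3 and type 17 markers summed to 19.8 and 18.3 in WT and 24.7 and 23.4 in KO preproNK, led by Ccr6 at 7.12 and 4.85 in WT and 9.66 and 9.29 in KO, with Il17a below the median on all arrays. The 8 ALP markers summed to 51.3 to 58.6 in ALP and 32.7 to 34.9 in preproNK. The part of any of these cell types in the members' levels was not tested.

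**Figure D5:**
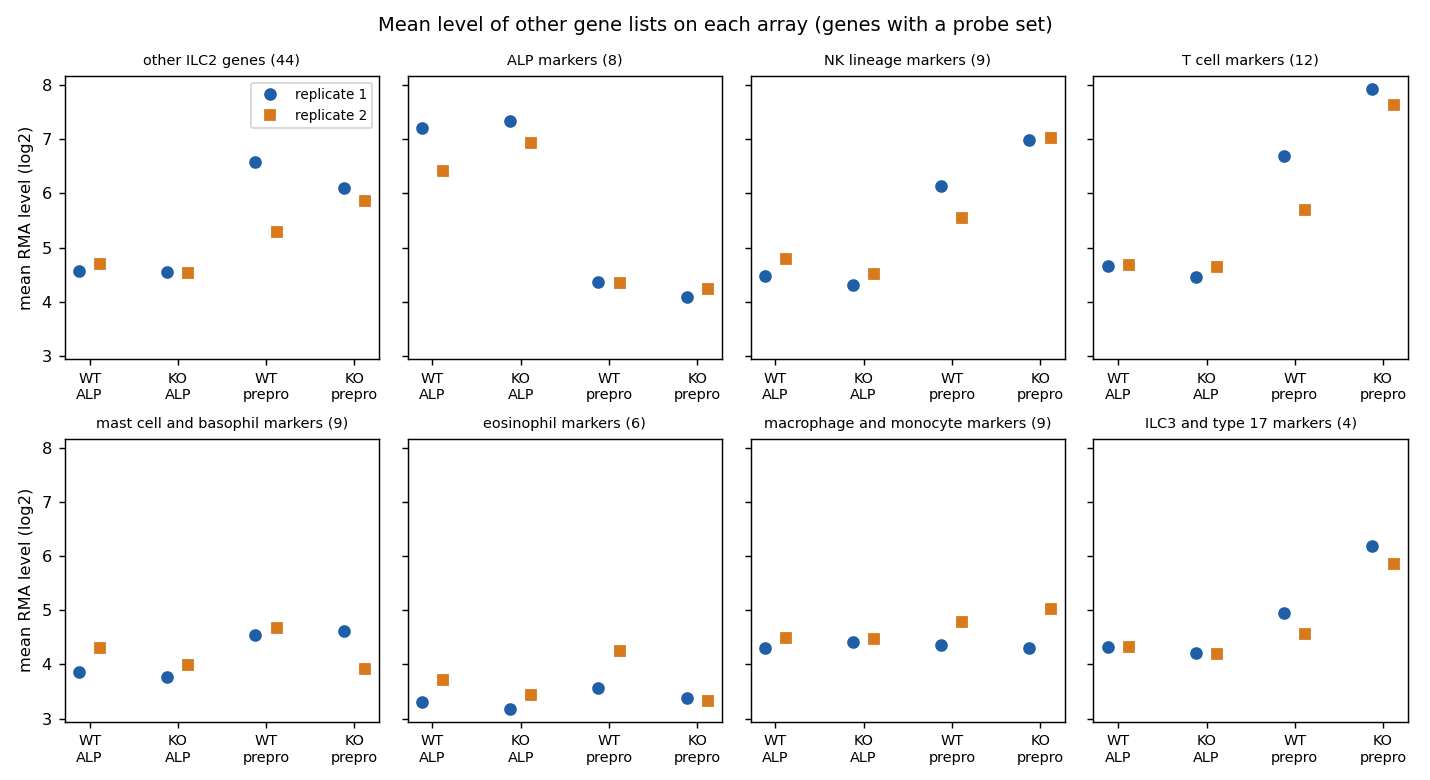
Mean log2 level of each gene list on each array (y axis) in the 4 groups (x axis), with the number of measured genes in brackets, circles for replicate 1 and squares for replicate 2. T cell, NK lineage and ILC3 and type 17 markers are highest on the KO preproNK arrays, the other ILC2 genes are highest on WT preproNK replicate 1, and eosinophil and macrophage markers are near or below 5 on all arrays.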

How the data were processed

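Deposited values were log2 levels for each probe set, which the authors computed using RMA and Partek according to the submitters' processing notes (versions and settings: not given in the sources used here). The scale was read from the values. RNA was amplified for 23 cycles, per the labels' protocols. The table held 45141 probe sets, of which 28898 had 1 gene symbol in the platform annotation and 551 several, and no gene was named from the latter. Of several probe sets of a gene, the brightest on average was used. A single limma 3.58.1 model (R 4.3.3, lmFit, eBayes) estimated the 4 group means from the 8 arrays together, leaving 4 residual degrees of freedom, with two-sided tests, Benjamini-Hochberg adjustment over all tested genes and calls at an adjusted p under 0.05. The fit was run on simulated data with a single spread for all genes and arrays and no outlying array or date difference. That run cannot show how the fit handles an array such as WT preproNK replicate 2. No label states separate mice, so the p-values reflect the spread among these samples alone, and that spread may be technical. Arrays have no read depth, and their number limits the precision. Without detection calls, a probe set dimmer than the median one of its array was treated as near background.

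Members and lists were chosen with earlier results of these data known. Genes named were all members, Nfil3, Id2, Gata3, the called genes and the 6 largest preproNK differences of the ILC2 list, the brightest of up to 3 WT preproNK markers of each list and the 6 nearest profiles. Xist, Eif2s3y, Kdm5d, further NK and T cell markers and markers below the median on all arrays were added after their values were seen. By the series design a replicate number stands for a processing date, which pairs the samples. Deviations from the group means correlated at 0.205 between WT and KO preproNK, the pairing used above for the knockout difference. They correlated at 0.149 to 0.205 between KO preproNK and any other group, and at 0.608 to 0.807 among WT preproNK and the ALP groups. The preproNK pairing thus rests on the dates, with little shared deviation in the values. Alternatives were a replicate block, repeated quantile normalization, other filters, the mean of all probe sets, array weights, a floor at the array median, percentile ranks and leaving out each array.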

Additional observations from a re-analysis of the deposited data

How the results depend on the processing

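Leaving out 1 array at a time decided most counts. The count of genes called between KO and WT preproNK was 0 to 2532 over those fits, the high end without WT preproNK replicate 1. A block for the replicate number gave 10, all higher in KO, and the block without WT preproNK replicate 2 gave 47. Between preproNK and ALP in WT, 11 genes were called (4 higher and 7 lower) and 0 to 824 when 1 array was left out. That count was 1 with array weights, 6 without a filter on dim probe sets, 67 with the block, 431 with the block and without WT preproNK replicate 2, and 70 after repeated quantile normalization (41 higher and 29 lower). In KO 203 genes were called (141 higher and 62 lower) and 0 to 530 when 1 array was left out, 902 with array weights, 449 with the block and 1238 with the block and without WT preproNK replicate 2. The causes were not tested.

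The members' median difference between KO and WT preproNK (-0.39) ranged from -1.71 to 0.51 when 1 array was left out and was -1.86 with the block and without WT preproNK replicate 2. Repeated quantile normalization gave -0.96 and moved the median of all tested genes from 0.15 to -0.05. It put 5 of the 6 members below 0, where the main fit had 3. On percentile ranks the members' median was -2.59 percentile points. The difference of the knockout effect between populations, -0.55 for the members' median, ranged from -1.59 to 0.20 when 1 array was left out and was -1.74 with the block and without WT preproNK replicate 2, and 0 genes were called for it in any fit. The members' median step from ALP to preproNK in WT, 3.43, ranged from 2.56 to 4.53 and was 4.52 in the last-named fit. In KO it was 2.56, with 2.31 to 2.82 when 1 array was left out. In ALP 0 genes were called in any fit, the members' median (-0.07) ranged from -0.28 to 0.23 when 1 array was left out, and no member was called. In preproNK Arg1 was between -3.67 and -1.27 and Pparg between -3.04 and -2.03 over 16 alternatives. Icos, Klrg1, Rora and Il17rb had the opposite sign in 3, 3, 2 and 1 of them. Many of these alternatives left Arg1 and Pparg at their main values (-2.30 and -2.36). They were array weights, the block alone, the filters, the floor, the mean of probe sets and leaving out an ALP array. Agreement among those fits therefore shows no stability, and the members were chosen with this contrast known.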
